A study of Mus musculus with 31 samples.

Results

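H3K27me3 on the 19 autosomes was compared between lung adenocarcinomas of the mouse that retained Nkx2-1 (positive tumors) and lung adenocarcinomas in which Nkx2-1 was deleted (deleted tumors). The regions described are islands, stretches of the genome that the authors' caller found enriched for the mark in chromatin immunoprecipitation followed by sequencing (ChIP-seq). They were chosen by mark and chromosome alone, without regard to their values. There were 98359 of them, 48977 in positive and 49382 in deleted tumors, among 104892 H3K27me3 islands on all chromosomes and 526837 islands and peaks of every target in the study. The islands on other chromosomes, 4075 in positive and 2458 in deleted tumors, were left out.

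The study profiled Nkx2-1 in positive tumors, and Foxa1/2 and 4 histone marks in tumors of both kinds, in 31 samples of which 9 were inputs, and 4 samples carried H3K27me3. Positive and deleted tumors came from mice of a mixed 129/B6 background aged 4 to 7 months, and each H3K27me3 group held 1 male and 1 female library. Mice of the series received adenovirus or lentivirus into the trachea and tamoxifen into the peritoneum at a low or a high dose. The labels do not say which virus or dose belonged to which tumor, and they give no genotype beyond the status of Nkx2-1. The files of both libraries of a group were identical and their names mark them as merged, so each tumor type had 1 list. No difference described here has a replicate check, no test was made, and islands or chromosomes are not replicates of a tumor type. Intervals on shares are 95% Wilson intervals and cover counting error only. Whole tumors were used, so fewer cells with the mark cannot be told apart from less of the mark per cell.

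H3K27me3 is the trimethylated form of lysine 27 of histone H3. It is written by the Polycomb repressive complex 2, whose catalytic subunit is Ezh2 or Ezh1 and whose subunit Eed binds the finished mark, which allows it to spread from a nucleation site into a domain. It marks silenced developmental genes, and its acetylated counterpart H3K27ac, which sits at active promoters and enhancers, cannot occupy the same lysine. H3K4me3 marks promoters, including the bivalent ones that carry H3K27me3 too, and H3K4me1 marks enhancers. Nkx2-1 is the homeodomain factor that maintains lung identity, and Foxa1 and Foxa2 are forkhead factors of endodermal epithelia.

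The total length under H3K27me3 was nearly equal in the 2 tumor types, whereas its placement and its parcelling into islands differed. Islands covered 453.6 Mb in positive and 448.3 Mb in deleted tumors, which was 18.4% and 18.1% of the 2471.9 Mb up to the last island of each autosome. Of the 19 autosomes, 9 had more covered length in deleted tumors and 10 had less. With the denser 50% of each list alone the direction turned, to 11.2 Mb more in deleted tumors. Read counts in these islands averaged 38.8 per kb in positive and 43.1 per kb in deleted tumors. Library depth was not given in the sources used here, so read counts were compared by rank only, and the part of depth in the differences below was not tested.

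The length covered in both tumor types was 364.0 Mb, and the shared bases made up 0.677 of all bases covered in either (the Jaccard index). Positive tumors alone had 89.6 Mb and deleted tumors alone 84.3 Mb. Whole islands absent from the other list accounted for 46.1% of the bases found only in positive tumors and 41.5% of those found only in deleted tumors. A further 40.1% and 43.4% lay at the borders of islands present in both, and 13.8% and 15.1% lay in breaks between pieces of an island of the other list. The differences were thus spread over whole islands and edges about evenly in each direction.

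Islands of intermediate width were fewer in deleted tumors, and the shortest and the widest were more numerous. The median width was 6000 bp in positive tumors, with quartiles of 4000 and 10200 bp, and 5400 bp in deleted tumors, with quartiles of 3600 and 9800 bp. It was lower in deleted tumors on 19 of 19 autosomes. Islands of 5 to 10 kb numbered 18053 in positive tumors against 15545 in deleted ones, and islands of 10 to 20 kb numbered 8779 and 7687. At the short end, islands under 2 kb numbered 502 and 1481, and islands of 2 to 5 kb numbered 17451 and 20295. At the wide end, positive tumors had 482 islands of 50 to 100 kb and deleted tumors 632, and those of 100 kb or more numbered 65 and 113. Islands of 50 kb or more were more numerous in deleted tumors on 17 autosomes and less numerous on 0, and they covered 40.4 Mb in positive and 57.4 Mb in deleted tumors.

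**Figure D1:**
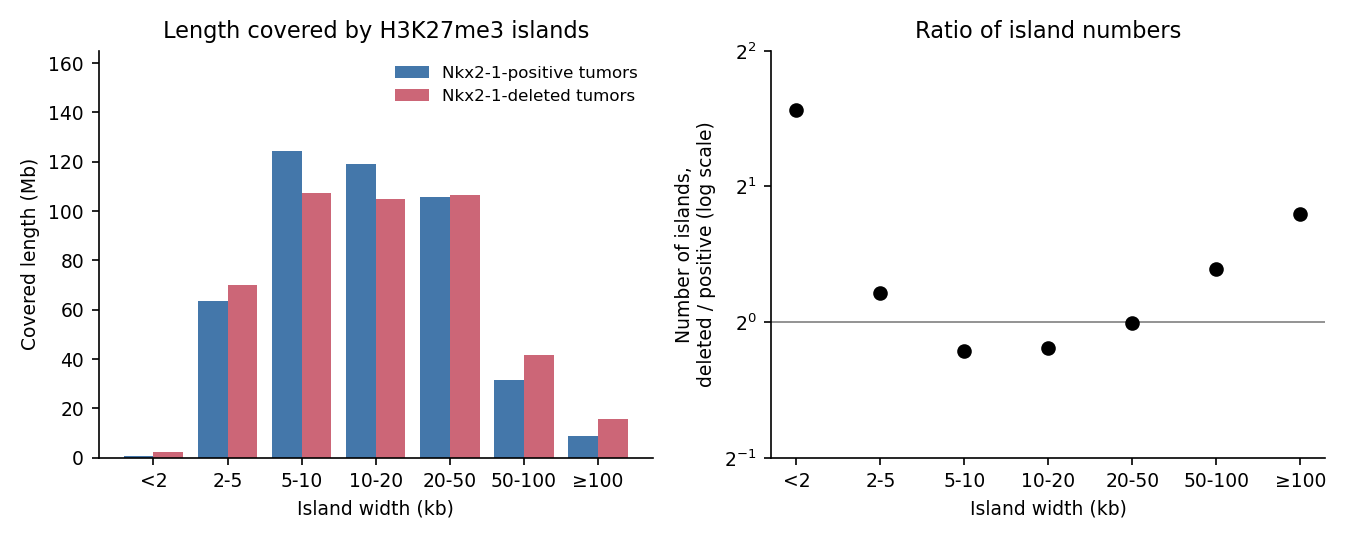
Autosomal H3K27me3 islands by width class in kb: the left panel gives the covered length in Mb for positive (blue) and deleted (red) tumors, and the right panel the number of islands in deleted over positive tumors on a log scale, with a grey line at equal numbers; each tumor type is 1 merged list. The ratio is 2.95 under 2 kb, 0.861 at 5 to 10 kb, 0.876 at 10 to 20 kb and 1.74 at 100 kb or more.

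The wide islands of deleted tumors lay almost wholly on sequence already covered in positive tumors, where it was split. The 745 islands of 50 kb or more in deleted tumors had a median of 97.1% of their length covered in positive tumors, and 574 of them (77.0%) corresponded to several pieces there. In the reverse direction, the 547 islands of 50 kb or more in positive tumors were covered to a median of 98.9% in deleted tumors, and 292 of them (53.4%) lay in several pieces. Among islands of 100 kb or more, 97 of 113 (85.8%) in deleted tumors and 33 of 65 (50.8%) in positive tumors were split in the other list. The wide islands of deleted tumors thus mostly spanned breaks between islands of positive tumors. Choosing islands for their width in 1 list favours the list they are chosen from, and the 2 directions are given side by side for that reason.

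The widest island of deleted tumors other than that on chromosome 15 lay on chromosome 19 at 44655801 to 44915000 (mm9), was 259200 bp wide, and matched 3 islands of positive tumors. One of these 3 was itself 199800 bp wide, at 44669201 to 44869000, and was number 4 by width in positive tumors. On chromosome 4, an island of 242600 bp at 116978801 to 117221400 in deleted tumors covered 7 islands of positive tumors, and one of 236000 bp at 46792201 to 47028200 covered 4. On chromosome 11, 231200 bp at 118636801 to 118868000 covered 6. These 4 islands had 96.4% to 98.5% of their bases covered in positive tumors.

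The widest island of positive tumors went the other way. It spanned 401800 bp on chromosome 15 at 102570801 to 102972600, and in deleted tumors it was called as 2 islands, of 145600 and 263400 bp, with 800 bp between them. Islands are joined by the caller over gaps of up to 600 bp, so a break of this size decides between 1 island and 2 while 99.7% of the stretch stayed covered. The next 4 of positive tumors, on chromosomes 4, 6, 19 and 4, were each wholly covered by a single island of deleted tumors. The island on chromosome 6 at 52073001 to 52280200 was the one with most active chromatin among the 5: H3K27ac covered 25.3% of it in positive and 23.7% in deleted tumors, and H3K4me3 33.3% and 23.4%.

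Islands present in only 1 list were short and sparse. An island was called lost when no island of deleted tumors overlapped it by at least 1 bp, and gained when no island of positive tumors did. Lost islands numbered 8410 of 48977 (17.2%, interval 16.8% to 17.5%), and gained islands 9035 of 49382 (18.3%, interval 17.96% to 18.6%). Lost islands had a median width of 4400 bp and a median density percentile of 20.7 within their list, where density is reads per kb. Gained islands had a median width of 3600 bp and a median density percentile of 26.9. Among the 10% of islands with the lowest density in each list 48.6% were lost and 40.8% gained, and among the 10% with the highest 1.33% and 2.90%.

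From 2 kb up, width went the same way. Under 2 kb, 114 of 502 islands (22.7%) were lost and 604 of 1481 (40.8%) gained. Of islands of 2 to 5 kb 28.3% were lost and 32.2% gained, of those of 10 to 20 kb 3.18% and 1.197%, and of the 3645 and 3629 islands of 20 to 50 kb 3 were lost and 1 was gained. None of the 482 islands of 50 to 100 kb in positive tumors was lost, and none of the 632 in deleted tumors was gained. A wide island has more chance of touching some island of the other list by 1 bp, so these shares by width are partly set by the rule. By autosome the lost share ran from 11.4% on chromosome 7 to 22.6% on chromosome 3, and the gained share from 14.9% on chromosome 19 to 24.4% on chromosome 17. The covered length in deleted over positive tumors was lowest on chromosome 3 (0.890) and highest on chromosome 17 (1.06). Across the 19 autosomes this ratio had a Spearman correlation of 0.56 with the same ratio of H3K27ac, 0.46 with that of H3K4me1 and 0.53 with that of H3K4me3. These are descriptions over chromosomes of the same tumors. The number of chromosome copies in the tumors was not analysed here.

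Most islands present in both lists had a single partner. In positive tumors 32879 islands overlapped 1 island of deleted tumors and 7688 overlapped several, up to 9. In deleted tumors 32800 overlapped 1 and 7547 overlapped several, up to 10. Islands with several partners were wide, with a median of 12800 bp in positive and 15000 bp in deleted tumors.

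Lost and gained islands sat in different chromatin. H3K27ac islands of positive tumors overlapped 3.00% of lost, 13.8% of kept and 19.4% of gained H3K27me3 islands. In deleted tumors the shares were 2.05%, 11.3% and 15.4%, so the order was the same in both acetylation lists. The other marks set lost islands apart, but not gained from kept ones over all widths. In positive tumors the shares of lost, kept and gained islands were 3.23%, 21.5% and 21.6% for H3K4me1, and 0.832%, 12.4% and 10.1% for H3K4me3. Since width raises the chance of an overlap, the shares were also taken within 2 to 5 kb, where 3.06% of lost islands (interval 2.61% to 3.58%) and 17.9% of gained islands (interval 17.0% to 18.9%) overlapped H3K27ac of positive tumors. The kept islands of that width stood between them, at 10.5% in the positive and 7.28% in the deleted list. Within that width, H3K4me1 of positive tumors overlapped 19.8% of gained islands, against 13.4% and 9.43% of kept islands of the positive and deleted lists. For H3K4me3 the shares were 9.32%, 6.59% and 4.36%.

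Factor peaks were rarer in lost than in gained islands, and within 2 to 5 kb the kept islands stood between them for every peak list. A peak of Nkx2-1, measured in positive tumors, lay in 5 of 8410 lost islands (0.0595%), in 215 of 9035 gained islands (2.38%) and in 445 of 40567 kept islands of positive tumors (1.097%). Foxa1/2 peaks of positive tumors lay in 10 lost (0.119%), 135 gained (1.49%) and 436 kept islands (1.07%). Those of deleted tumors lay in 24 lost (0.285%), 97 gained (1.07%) and 494 kept islands (1.22%). Kept islands of positive tumors were wider (median 6800 bp) than gained islands (3600 bp). Within 2 to 5 kb, Foxa1/2 peaks of deleted tumors lay in 0.917% of gained islands. Kept islands of that width stood lower, at 0.639% in the positive and 0.465% in the deleted list. Few islands of either kind held a factor peak.

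Counted in bases, 1.93% of the sequence covered only in positive tumors lay under H3K27ac of those tumors, against 4.71% of the shared and 8.74% of the sequence covered only in deleted tumors. The autosomes as a whole stood at 11.6%, so even the bases gained by H3K27me3 were less acetylated than the genome. On single autosomes the lost bases ran from 1.06% to 2.94% and the gained bases from 5.98% to 11.8%, and the gained value was the higher on 19 of 19. Under H3K4me1 of positive tumors lay 2.06% of lost and 9.49% of gained bases, and under H3K4me3 0.488% and 3.47%.

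Active marks covered less of every class of bases in deleted than in positive tumors. H3K27ac over gained bases went from 8.74% to 6.51%, over lost bases from 1.93% to 1.30%, and over the autosomes from 11.6% to 9.04%. H3K4me3 over gained bases went from 3.47% to 2.50%, against 4.13% to 2.53% over the autosomes. The gained bases thus had more of all 3 marks than the lost bases in each tumor type.

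The autosomes were next divided into 2463 windows of 1 Mb, and the H3K27me3-covered length of each was compared. In 36 windows (1.46%) it was higher by 100 kb or more in deleted tumors, and in 106 windows (4.3%) it was lower by as much. With the denser 50% of each list alone, 45 windows gained and 45 lost that much, so the excess of losses was not present among the denser islands. The median change was 0 kb, with quartiles of -20 and 26.8 kb, and 300 windows had no island in either list. The threshold fell within a continuous range, with 99.6 kb in the highest window not counted as a gain and 100.8 kb in the lowest that was. Large losses went further than large gains, since 30 windows lost 150 kb or more and 10 lost 200 kb or more, while 0 gained 150 kb. All 19 autosomes held a window with a loss of 100 kb or more and 16 held one with a gain.

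**Figure D2:**
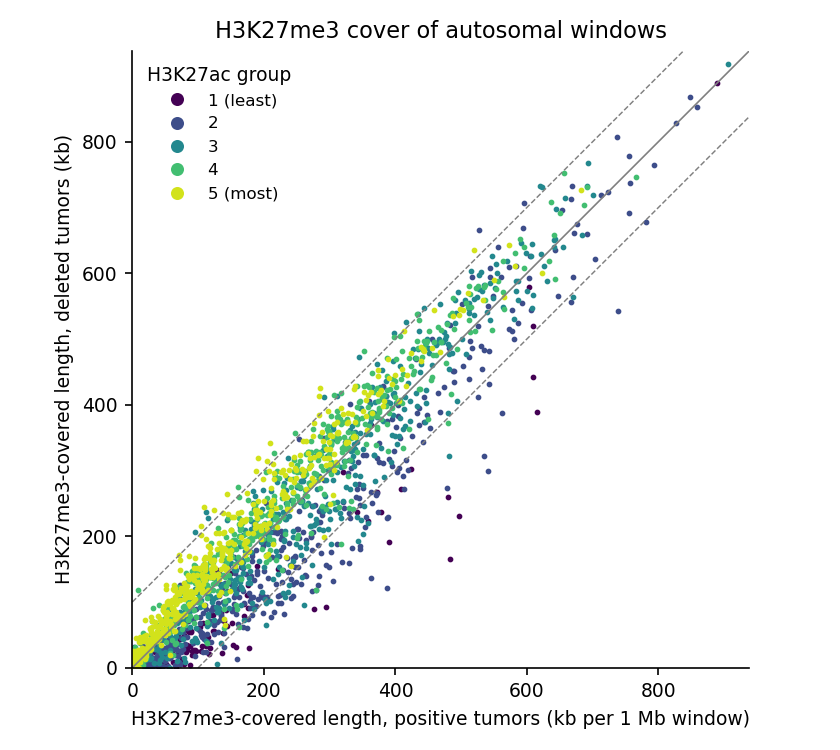
H3K27me3-covered length in kb of each autosomal window of 1 Mb in positive (x axis) and deleted (y axis) tumors, coloured by 5 equal groups of windows by H3K27ac-covered length in positive tumors; the solid line marks equal length and the dashed lines a change of 100 kb. Of the 106 windows at or under the lower dashed line, 18 and 64 are of groups 1 and 2, and of the 36 at or above the upper one 2 are.

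By their medians, the windows with losses were poor in active chromatin and those with gains were rich in it. The median H3K27ac-covered length in positive tumors was 18.2 kb in the 106 windows with losses, 83.0 kb over all windows and 155 kb in the 36 with gains. The median number of Nkx2-1 peaks was 2 in windows with losses, 8 over all windows and 16.5 in windows with gains. Windows with losses started from more H3K27me3 than the typical window, at a median of 314.7 kb against 138.8 kb, and went to 163.7 kb. The higher start is partly set by the rule. A window must hold 100 kb in positive tumors to lose that much, and all windows include those without any island. Windows with gains went from 284.5 to 412.5 kb.

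The relation held over the whole range of acetylation. Windows were put into 5 groups of equal size by their H3K27ac-covered length in positive tumors. In group 1, the least acetylated, where H3K27ac covered 3.4 kb or less, H3K27me3 covered 18.8 Mb in positive and 10.8 Mb in deleted tumors, a change of -42.5%. In group 2 it went from 109.2 to 89.2 Mb (-18.3%), and in group 3 from 128.1 to 125.5 Mb (-2.06%). In group 4 it went from 120.9 to 130.8 Mb (8.18%), and in group 5, the most acetylated, from 75.7 to 91.2 Mb (20.5%). The direction was the same on every autosome at both ends, lower on 19 of 19 in groups 1 and 2 and higher on 19 of 19 in group 5. Single autosomes ran from -65.3% to -19.4% in group 1 and from 10.9% to 45.0% in group 5. Over the 2463 windows, the Spearman correlation of the change with H3K27ac was 0.54, and with the window's own H3K27me3 in positive tumors 0.08. Windows share their libraries and neighbours, so these values are descriptions.

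**Figure D3:**
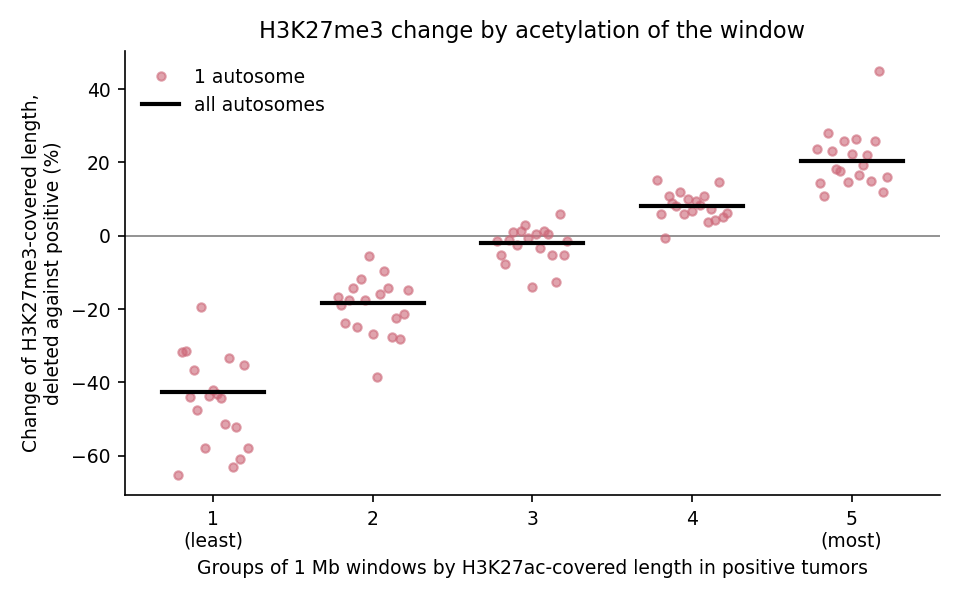
Change of H3K27me3-covered length in deleted against positive tumors in percent, in 5 equal groups of the autosomal 1 Mb windows ordered by H3K27ac-covered length in positive tumors; each point is 1 autosome and each bar all autosomes together. The bars go from -42.5% in the least to 20.5% in the most acetylated group.

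Another mark moved along the same axis without the change of sign. H3K4me1, called with the same window and gap settings, changed by -51.3% in group 1, by -28.0%, -15.3% and -8.56% in groups 2 to 4 and by -3.54% in group 5. H3K4me3 showed no such gradient and changed by -36.9% to -39.3% in the 5 groups. H3K27me3 and H3K4me1 thus both covered less of the windows poor in H3K27ac, and in groups 4 and 5 the cover of H3K27me3 was higher and that of both other marks lower. The share of these gradients that depends on depth or background of the libraries was not tested.

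The 10 windows with the largest losses all had under 2% of their length under H3K27ac in positive tumors, and lay on 7 autosomes. The largest was on chromosome 8 at 115000001 to 116000000, where H3K27me3 covered 483.0 kb in 72 islands in positive tumors and 166.2 kb in 36 islands in deleted tumors. H3K27ac covered none of it in either. Adjacent windows on chromosome 11, at 91000001 to 92000000 and 92000001 to 93000000, went from 387.2 to 121.6 kb and from 496.2 to 230.8 kb. The window on chromosome 8 at 33000001 to 34000000 went from 540.4 to 298.8 kb, and that on chromosome 12 at 54000001 to 55000000 from 616.0 to 389.4 kb. The islands of these 10 windows were sparse to middling in positive tumors, with a median density percentile of 19.1 to 42.6 by window.

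The other 5 of the 10 had the same form. They lay on chromosome 1 at 56000001 to 57000000, which went from 362.2 to 136.0 kb, and on chromosome 19 at 35000001 to 36000000, from 479.6 to 259.8 kb. A window on chromosome 11 at 47000001 to 48000000 went from 534.6 to 321.8 kb. The last ones were on chromosome 16 at 88000001 to 89000000 (478.8 to 273.4 kb) and chromosome 9 at 33000001 to 34000000 (293.8 to 91.8 kb). Of all windows with losses, 81 stood alone and 12 runs held several in a row, the longest being 3 Mb on chromosome 19 at 18000001 to 21000000, with a summed change of -419.2 kb.

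Of the 10 windows with the largest gains, 9 had over 9% of their length under H3K27ac in positive tumors. The largest gain was on chromosome 5 at 135000001 to 136000000, from 285.0 kb in 31 islands to 425.4 kb in 46 islands. H3K27ac covered 32.6% of that window in positive and 26.0% in deleted tumors, and it held 26 Nkx2-1 peaks. The window on chromosome 16 at 34000001 to 35000000 went from 108.6 to 244.0 kb and held 34 Nkx2-1 peaks, with 35 Foxa1/2 peaks in positive and 11 in deleted tumors. On chromosome 16 at 93000001 to 94000000 H3K27me3 went from 209.0 to 341.6 kb, and on chromosome 14 at 77000001 to 78000000 from 191.6 to 319.0 kb with 31 Nkx2-1 peaks. These windows of chromosomes 5, 14 and 16 combined much H3K27ac with many factor peaks. Not all of the 10 did. Those on chromosomes 2, 8, 9 and 15 had 9.2%, 10.9%, 4.86% and 9.5% under H3K27ac in positive tumors, below the autosomes as a whole. Their Nkx2-1 peaks numbered 8, 6, 5 and 12, against a median of 8 over all windows. H3K27ac was lower in deleted tumors in each of the 10 windows, as it was over the autosomes as a whole (11.6% to 9.04%).

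The second largest gain had the least H3K27ac of the 10. On chromosome 9 at 68000001 to 69000000, H3K27me3 went from 526.8 to 666.2 kb while H3K27ac covered 4.86% in positive and 2.76% in deleted tumors. The window on chromosome 15 at 67000001 to 68000000 went from 112.2 to 237.6 kb, with H3K27ac going from 9.50% to 3.12% and Foxa1/2 peaks from 10 to 2. Of the remaining 4, that on chromosome 17 at 48000001 to 49000000 went from 352.2 to 482.4 kb and that on chromosome 10 at 76000001 to 77000000 from 283.6 to 413.0 kb. On chromosome 8, 36000001 to 37000000 went from 344.8 to 472.6 kb, and on chromosome 2, 5000001 to 6000000 went from 290.8 to 412.4 kb. Foxa1/2 peaks went from 11 to 12 in the window of chromosome 17, and stayed at 5 on chromosome 8 and 8 on chromosome 2. They went from 19 to 8 on chromosome 5, 7 to 3 on chromosome 9 and 9 to 6 on chromosome 10. On chromosome 14 they went from 24 to 19, and on chromosome 16 at 93000001 from 23 to 19. Over all windows their median went from 7 to 4. Gains reached 2 Mb in a row in 2 places, on chromosome 14 at 77000001 to 79000000 and on chromosome 17 at 47000001 to 49000000.

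The borders of individual domains were compared in pairs of islands that overlapped each other and no other island. There were 20459 such matched domains, of which 9691 were wider in deleted tumors, 9387 narrower and 1381 equal. Of those with a change, 50.8% (interval 50.1% to 51.5%) were wider, and the median change was 0 bp with quartiles of -1200 and 1200 bp. Of 40918 borders, 6704 (16.4%) were at the same place, 17488 lay further out in deleted tumors and 16726 further in. The median shift in either direction was 600 bp, and 53.9% of borders lay within 600 bp, the gap over which the caller joins windows. Over all matched domains, outward and inward shifts were thus nearly balanced.

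**Figure D4:**
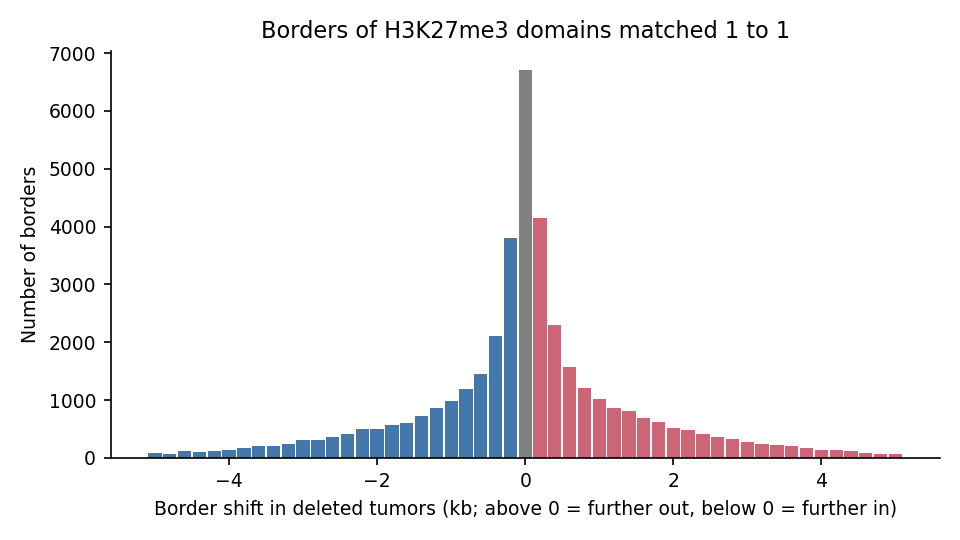
Number of borders of the 20459 matched domains by shift in kb, where values above 0 (red) lie further out in deleted tumors and values below 0 (blue) further in; borders shifted by over 5 kb are outside the plot. The distribution is nearly symmetric around the 6704 borders at the same place (grey).

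The long shifts were more often inward. Shifts of 5 kb or more numbered 538 outward and 711 inward, and those of 10 kb or more 20 outward and 54 inward. The largest were 16600 bp outward and 17800 bp inward. The 2 borders of a domain moved oppositely, 1 outward and the other inward, in 33.7% of domains, both outward in 18.9% and both inward in 17.8%.

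Wider domains were more often wider in deleted tumors. By the mean of both widths, 46.3% of domains under 5 kb, 51.4% of those of 5 to 10 kb, 57.6% of those of 10 to 20 kb and 61.1% of those of 20 kb or more (interval 57.7% to 64.4%) were wider. The median change was small in the last class, 200 bp against a median width of 27400 bp in positive tumors. The answer depended on which list set the class: of domains of 10 kb or more in positive tumors 43.9% were wider in deleted tumors, of those of 10 kb or more in deleted tumors 70.5%, and by the mean width 58.4%. Only the class by mean width treats both lists alike.

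Domains that overlapped active marks were more often wider in deleted tumors than domains without them. Of 2165 matched domains that overlapped an H3K4me3 island in both tumor types, the pattern called bivalent although in whole tumors the marks may sit in different cells, 65.5% (interval 63.4% to 67.6%) of those with a change were wider in deleted tumors. Of 14712 domains with no island of H3K4me3, H3K4me1 or H3K27ac in either tumor type, 46.2% (interval 45.3% to 47.0%) were wider. Domains with H3K4me1 or H3K27ac but no H3K4me3, 2985 in number, stood at 61.3%. By mean width, the shares with H3K4me3 in both and without any mark were 62.7% and 43.9% under 5 kb, 69.1% and 45.9% at 5 to 10 kb, and 63.4% and 54.0% at 10 kb or more. In the last class the domains without any mark were thus also more often wider than narrower (interval 51.7% to 56.2%).

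The 5 domains that narrowed most, of those of 10 kb or more in positive tumors, carried none of the 3 marks in either tumor type. The first, on chromosome 17 at 62617601 to 62641800, went from 24200 to 2000 bp, and the second, on chromosome 1 at 6714201 to 6736600, from 22400 to 2200 bp. One on chromosome 15 at 40937001 to 40961400 went from 24400 to 5600 bp and one on chromosome 3 at 134264601 to 134287800 from 23200 to 4800 bp. The last, on chromosome 1 at 122940801 to 122963400, went from 22600 to 5000 bp. Of the 5 that widened most, 4 overlapped an active mark. For both sets, the share without any mark among all matched domains of 10 kb or more by mean width was 53.7%. A domain on chromosome 9 at 64299801 to 64337400 went from 21200 to 37600 bp, while H3K27ac over it went from 12.8% to 3.72%. On chromosome 17 at 50323801 to 50345000 a domain went from 11200 to 21200 bp, with H3K27ac going from 45.3% to 22.6%. One on chromosome 6 at 51551801 to 51573400 went from 10600 to 20800 bp, and the unmarked one, on chromosome 4 at 139949401 to 139973400, from 10600 to 24000 bp.

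The largest widening was in an unusually dense stretch of chromosome 1. A domain at 90174001 to 90214400 went from 23400 to 40400 bp, while H3K27ac over it changed little, from 29.7% to 28.2%. Next to this domain lay the widest gained island, of 36600 bp at 90122001 to 90158600. By density, the H3K27me3 island of positive tumors there ranked at percentile 99.97 of all autosomal islands of its kind, and the densest of deleted tumors at 99.96. The densest H3K4me1 islands there ranked at 99.95 and 99.96. The copy number of the stretch was not analysed here, and its part in both calls was not tested.

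The other widest lost and gained islands were modest. The 5 widest lost islands were 19200 to 22000 bp wide and overlapped none of the 3 active marks, the first being on chromosome 1 at 145307401 to 145329400 with 35.2 reads per kb. Such overlap was rare among all 282 lost islands of 10 kb or more. In positive tumors it was 1.42% for H3K27ac, 1.06% for H3K4me1 and 0.709% for H3K4me3. The 4 gained islands after that on chromosome 1 were 16400 to 18400 bp wide. One of them, on chromosome 16 at 34535401 to 34553200, lay in the window with the third largest gain. Another, on chromosome 5 at 91994401 to 92010800, had H3K4me1 over 4.88% of its length in positive and 26.8% in deleted tumors. H3K4me1 went the other way in the island on chromosome 16, from 7.87% to 0%, and in the widest, on chromosome 1, from 27.3% to 0%. Of the 5 widest gained islands, 3 overlapped an active mark in positive tumors and 1 in deleted tumors.

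Read density was compared by rank within the matched domains of each list. The Spearman correlation of density between tumor types was 0.61 over 20459 domains, with libraries shared by all points, and it went from 0.42 for domains under 5 kb to 0.85 for those of 20 kb or more. The percentile differed by 25 points or more in 6265 domains (30.6%), up in 3105 (15.2%) and down in 3160 (15.4%) in deleted tumors. The median difference in either direction was 14.99 points. Of the 2046 domains in the top 10% by density in positive tumors, 1219 (59.6%) were in the top 10% of deleted tumors, and of the 2042 in the bottom 10%, 539 (26.4%) were in the bottom 10%. Ranks thus differed less among dense and wide domains than among sparse and narrow ones.

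**Figure D5:**
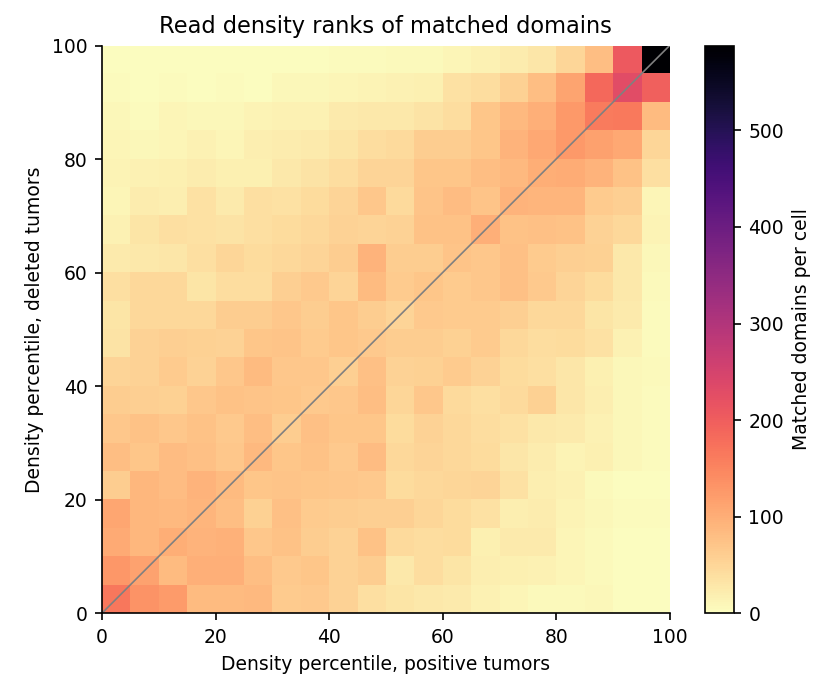
Density percentile of the 20459 matched domains in positive (x axis) and deleted (y axis) tumors, as the number of domains per cell of 5 by 5 points, with a grey line at equal rank. The domains crowd together at the dense end, where 1219 of the 2046 densest of positive tumors are also among the densest of deleted tumors, and spread out below it.

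Domains whose rank dropped overlapped active marks less often than the others. Of the domains that went up by 25 points or more, 22.96% overlapped H3K27ac of positive tumors and 17.9% overlapped H3K4me3. Of those that went down, 6.99% and 4.18% did, of those within 10 points 15.4% and 17.1%, and of all matched domains 14.9% and 13.1%. For H3K4me3 the domains that went up thus stood close to those whose rank stayed. The median width in positive tumors was 5400 bp in the first group and 4800 bp in the second. Among the 2165 bivalent domains, 20.8% went up and 4.02% down, and among the 14712 without any mark 13.02% went up and 18.8% down.

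Of the 5 domains of 10 kb or more with the largest drop in rank, 0 carried an active mark, and of the 5 with the largest climb, 4 did. Among all matched domains of 10 kb or more by mean width, 53.7% carried none in either tumor type. On chromosome 6 at 29471001 to 29482000 a domain went from percentile 2.06 to 85.7. On chromosome 17 at 34766201 to 34780600 one went from percentile 16.8 to 86.6, with H3K27ac over 100% of it in positive and 95.8% in deleted tumors. In the other direction, a domain on chromosome 19 at 20249401 to 20261000 went from percentile 90.2 to 11.2, and one on chromosome 15 at 65458401 to 65473400 from 80.4 to 2.21.

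H3K4me1, the other mark called with a gap of 600 bp, differed between tumor types in another way. Its lost share was 22.8% and its gained share 8.40%, against 17.2% and 18.3% for H3K27me3, and its covered length was lower by 27.6 Mb, from 322.7 to 295.1 Mb, on 19 of 19 autosomes. Its windows with a change of 100 kb or more numbered 0 up and 5 down. The median border shift was 200 bp and the rank correlation of density 0.72. H3K27me3 thus had about as many gained as lost islands, where H3K4me1 had mostly lost ones.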

How the data were processed

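Tumor chromatin was immunoprecipitated with an antibody against H3K27me3 and sequenced from a single end, per the labels' protocols. Per the submitters' processing notes, Bowtie, MACS 1.4.2, SICER 1.1 and build mm9 were used, whose roles are not stated. Deposited island lists have names that carry windows of 200 bp, gaps of 600 bp (H3K27me3, H3K4me1) or 200 bp (H3K27ac, H3K4me3) and an FDR of 0.01, and mark them as merged. The count that the authors deposited with an island is of its reads, without scaling for depth. It gave read density, ranked within a list. The score of each deposited peak was not used; peaks served by position. Pairing and replicate spread could not be checked, since both files of each group were byte-identical. Inputs were not used here.

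End was taken as the last base. Overlap means at least 1 bp. Windows were tiled from base 1 of each autosome, without a last window running past the last island of any list. Density percentiles of islands are within their whole list, and those of matched domains within the matched domains. Scripts ran in Python 3.11.15 with numpy 2.4.6 and scipy 1.17.1, were tested on simulated data, and drew figures with matplotlib 3.10.9. Named regions were the 10 windows with the largest rise and the 10 with the largest fall, the 5 widest islands of each list, the 5 widest lost and gained islands, and, of matched domains of 10 kb or more in positive tumors, the 5 with the largest change of width and of density percentile in each direction. Gene tables of the files' build were not used here, so regions have no gene names, and the deletion of Nkx2-1 was not checked at its locus. The regions and comparisons were chosen with earlier results of these data known. Alternatives are named in the closing section. Those by chromosome 3, very dense islands, mean or deleted-tumor width, and the grouping of windows by acetylation were chosen after seeing the data.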

Additional observations from a re-analysis of the deposited data

How the results depend on the processing

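No paired analysis was possible because both libraries of a group share 1 merged list, which also leaves no replicate to leave out. The depth of the libraries was not given, and its part in the calls of sparse islands was not tested.

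Joining islands closer than 2 kb gave a lost share of 19.5%, a gained share of 19.9%, a covered change of -4.46 Mb, a Jaccard index of 0.700, a median width ratio of 0.921 (0.9 as reported), 52.4% of matched domains wider and 52.1% of borders outward (51.1% as reported). The upper 50% of each list by density gave 24.5%, 29.2%, 11.2 Mb (the direction turned), 0.650, 0.949, 57.5% and 56.4%, 49.2% of domains of 10 kb or more wider, a density correlation of 0.54, 34.8% with a shift of 25 points and 45 windows each with gains and losses. Islands of 2 kb or more gave a gained share of 17.6%, -6.81 Mb, 0.675 and 0.903. An overlap of 50% of the shorter island gave 19.7% lost and 21.3% gained, and lists cut by density to equal length 16.4% and 18.96%. Matching by 50% of both islands gave 52.8% wider, 52.5% outward, 49.9% of domains of 10 kb or more wider, 0.65 and 28.5%. Border changes of 1 kb or more were outward in 50.2%, and read count in place of density gave a correlation of 0.69. Choosing domains of 10 kb or more by the width in deleted tumors (70.5%) or the mean (58.4%) turned the direction of 43.9%. At 50 kb, 269 windows gained and 344 lost; at 200 kb, 0 and 10. Without chromosome 3 the lost share was 16.8%, the covered change -2.35 Mb and the Jaccard index 0.681; without islands of 100 reads per kb or more, -6.54 Mb and 0.675.

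The share with H3K27ac changed from positive to deleted tumors by -0.95 points at lost and -3.996 points at gained islands; with the mark over 50% of the island, by -0.52 and -2.45, and for islands of 2 kb or more, by -0.96 and -4.20. Gained minus lost bases under H3K27ac came to 6.81 points, and to 7.32 (joined), 6.31 (upper 50%), 6.78 (2 kb or more), 6.83 (equal length), 6.94 (without chromosome 3), 5.21 (H3K27ac of deleted tumors) and 7.43 (H3K4me1). The change in the least acetylated group of windows was -42.1% (joined), -32.6% (upper 50%), -42.8% (2 kb or more), -40.5% (equal length), -43.6% (without chromosome 3), -42.7% (without very dense islands), -43.6% (windows shifted), -41.9% (H3K27ac of deleted tumors) and -44.3% (grouped by H3K4me1). In the same order, the most acetylated group gave 20.7%, 26.9%, 20.1%, 21.5%, 20.8%, 20.1%, 19.8%, 20.0% and 21.2%. The cause of these differences was not tested.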
